A study of Rattus norvegicus with 6 samples.

Results

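The genes described here carry out prostaglandin synthesis in rat RA-FLS, the fibroblast-like synoviocytes of a joint with rheumatoid arthritis. The set holds 10 genes, taken by gene name for their roles: Pla2g2a and Pla2g4a (phospholipases A2), Ptgs1 and Ptgs2 (cyclooxygenases), Ptges, Ptges2, Ptges3 and Ptgis (prostaglandin synthases), and Ptger2 and Ptger4 (receptors of prostaglandin E2). Of these, 9 were found among the 34156 genes of the count table, and Ptgis was not analysed here. Read counts were high enough to test 8 of the 9, out of 13614 genes tested in all.

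The count table held 6 libraries of poly(A)-selected RNA, each with 16813322 to 17794455 reads counted on genes. The TNF-α group (n = 3) received 10 ng/mL TNF-α, an inflammatory cytokine, and the TNF-α+EMO group (n = 3) received 10 ng/mL TNF-α together with 80 μmol/L EMO (emodin, a plant anthraquinone). All 6 libraries came from purchased rat cells of genotype WT and disease state rheumatoid arthritis, at passage 4, and the labels give day 5 whereas the study's methods give a treatment in hours. All 6 also received TNF-α, so that no library shows the cells at rest or with EMO alone, and the vehicle of EMO is not named. The study's methods call the 3 libraries of a condition biological replicates, and neither they nor the labels say how the cultures were kept apart, so the p-values measure the spread between these libraries, which may be technical in part.

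Prostaglandins are lipid mediators made from arachidonic acid. A phospholipase A2 cuts arachidonic acid out of membrane phospholipids, a cyclooxygenase turns it into prostaglandin H2, and terminal synthases convert that intermediate into prostaglandin E2, prostacyclin and the other prostanoids. In the inflamed joint, synovial fibroblasts exposed to TNF-α or interleukin-1 are a known source of prostaglandin E2. It is made mainly through the inducible enzymes COX-2 (Ptgs2) and microsomal PGE synthase-1 (Ptges). Prostaglandin E2 acts through EP receptors, of which EP2 (Ptger2) and EP4 (Ptger4) raise cAMP.

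Differentially expressed genes (DEGs) are those that passed edgeR's quasi-likelihood test at an adjusted p of 0.05 and changed more than 2-fold, that is, by over 1 on the log2 scale. Positive log2 fold changes mean more mRNA with EMO. Of the 8 tested genes, 6 were lower and 2 higher with EMO, and all 8 were DEGs. Among all genes tested, 47.3% were DEGs, 27.8% lower and 19.5% higher. The libraries of the groups did not overlap in normalized counts for any of the 8 genes, as for 82.9% of all genes tested. With so wide a background, these counts say little about prostaglandin genes as a set, and the sizes of the changes are given gene by gene. The low-count filter was passed through the TNF-α libraries alone by 3 of the 8 (Pla2g2a, Ptges and Ptger4). These 3 had to be lower with EMO, and their tests add nothing to that.

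The promoters of 4 genes are printed because they stand for the responses found: Pla2g2a and Ptges, with no counts left in any EMO library, Ptgs2, the inducible cyclooxygenase with a steep decrease, and Ptges3, which increased. Each is 300 bases from RefSeq (build GRCr8), 5′ to 3′ on the gene's strand, from 250 bases before the annotated start to 50 after it, and 8 of the 10 genes had an entry. They lie at chr5:156359475-156359774 (Pla2g2a, plus strand), chr13:64713813-64714112 (Ptgs2, plus strand), chr3:34586938-34587237 (Ptges, minus strand) and chr7:1075059-1075358 (Ptges3, plus strand). Capitals mark matches to the motifs named after the sequences.
Pla2g2a: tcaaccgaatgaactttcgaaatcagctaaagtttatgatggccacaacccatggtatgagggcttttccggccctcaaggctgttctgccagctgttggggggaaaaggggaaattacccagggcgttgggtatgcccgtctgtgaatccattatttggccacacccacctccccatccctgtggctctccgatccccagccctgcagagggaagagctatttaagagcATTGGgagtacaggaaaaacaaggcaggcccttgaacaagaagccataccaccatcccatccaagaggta
Ptgs2: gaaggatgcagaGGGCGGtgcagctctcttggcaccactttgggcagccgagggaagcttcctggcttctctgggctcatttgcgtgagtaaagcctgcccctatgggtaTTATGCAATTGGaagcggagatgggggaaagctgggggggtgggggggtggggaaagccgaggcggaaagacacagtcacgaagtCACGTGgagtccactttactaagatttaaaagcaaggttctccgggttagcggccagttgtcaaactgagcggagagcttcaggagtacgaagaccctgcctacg
Ptges: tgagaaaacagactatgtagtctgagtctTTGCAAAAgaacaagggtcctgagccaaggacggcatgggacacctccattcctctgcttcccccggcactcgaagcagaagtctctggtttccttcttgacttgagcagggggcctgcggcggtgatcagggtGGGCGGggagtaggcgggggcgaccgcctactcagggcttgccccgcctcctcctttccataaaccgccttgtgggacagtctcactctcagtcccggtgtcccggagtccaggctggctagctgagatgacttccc
Ptges3: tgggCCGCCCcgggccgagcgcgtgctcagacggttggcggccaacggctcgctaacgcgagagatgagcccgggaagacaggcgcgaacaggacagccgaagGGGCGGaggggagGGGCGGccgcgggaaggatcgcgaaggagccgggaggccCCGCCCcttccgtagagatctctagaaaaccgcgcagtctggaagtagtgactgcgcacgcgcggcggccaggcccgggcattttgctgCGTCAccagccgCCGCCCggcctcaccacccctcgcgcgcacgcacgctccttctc

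Promoters were searched on both strands for the C/EBP motif TTGCNNAA, the CRE half-site TGACG, the E-box CACGTG, the AP-1 motif TGANTCA, the GC box GGGCGG, the TATA box TATAAA, the CCAAT box and the NF-κB consensus. Positions count from 0 at the annotated start. The Ptgs2 promoter held a C/EBP match at -140, a CCAAT box at -133 that shares 1 base with it, an E-box at -55 and a GC box at -238. Among all 33469 promoters in the RefSeq table, 10.6% held a C/EBP match, 37.5% a CCAAT box, 6.42% an E-box and 33.1% a GC box. The Ptges promoter held a C/EBP match at -221 and a GC box at -87. The Ptges3 promoter held 5 GC boxes and a CRE half-site at -6 (21.2% of all promoters hold a CRE half-site), and its GC content was 71.7% against a median of 51.7% over all promoters. The Pla2g2a promoter held only a CCAAT box, at -20. Of the promoters not printed, that of Pla2g4a held a TATA box on the minus strand at -108 (14.2% of all promoters hold 1 or more), and those of Ptgs1, Ptger2 and Ptger4 held none of these motifs. No NF-κB (4.18% of all promoters) or AP-1 (7.33%) match was found in any of the 8 windows. A match is only a match of letters, and the windows are short.

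Markers of the cells were read in the same libraries. The summed level of 12 fibroblast marker genes was 11680 to 12851 CPM in the TNF-α libraries and 2047 to 2202 CPM in the EMO libraries. Of the 9 tested, 7 fell, 1 rose (Dcn) and 1 was not a DEG (Vim, log2 fold change -0.92). Dcn passed the low-count filter through the EMO libraries alone, so it had to be higher. Of the 7 that fell, 2 had 3 counts or fewer in every EMO library. These 2 passed through the TNF-α libraries alone and had to be lower. Pdpn and Prg4, markers of the synovial lining, had at most 1 and 4 counts in any library, and Thy1 and Dcn at most 7 and 4 in any TNF-α library, while Col1a1 had 102801 to 121730. Cdh11, the cadherin of synovial fibroblasts, had 2893, 3111 and 3114 counts with TNF-α and 43, 43 and 32 with EMO. In the TNF-α libraries the label is thus borne by collagen genes, the Pdgfr genes and Cdh11, while Pdpn, Prg4, Thy1 and Dcn were near 0. Of the 12 fibroblast markers, 5 had 3 counts or fewer in every EMO library, against 1 in every TNF-α library. The 12 macrophage and leukocyte markers summed to 70.2 to 76.4 CPM with TNF-α and 43.5 to 47.6 with EMO. Of the 3 tested, Cd14 was a lower DEG (log2 fold change -1.10), Itgam a higher DEG (1, 0 and 0 counts with TNF-α and 12, 10 and 14 with EMO, overlapping Itgax on the same strand) and Cd68 not a DEG (0.75, adjusted p = 2.4e-04 by edgeR). Itgam passed the low-count filter through the EMO libraries alone, so it had to be higher. In this list, Ptprc, Cd163, Cd3e, Ms4a1 and Adgre1 had 3 counts or fewer in every library. The 6 endothelial markers summed to 4.09 to 4.45 CPM with TNF-α and 0.949 to 1.32 with EMO, with Kdr and Emcn at 0. The mRNAs of 13 mitochondrial genes held 3.33% to 3.55% of counts with TNF-α and 0.191% to 0.214% with EMO. The part of these differences in the changes of the prostaglandin genes was not tested, and in bulk RNA fewer cells of a type and less RNA per cell cannot be told apart.

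The 2 phospholipases A2 fell by very different amounts. Pla2g2a (ENSRNOG00000016945, chromosome 5, 157282669 to 157285328, plus strand, on build Rnor_6.0 as are all gene positions here) encodes group IIA phospholipase A2, a secreted enzyme known from inflamed synovial fluid. It had 2162, 2261 and 1975 counts with TNF-α and 0, 0 and 0 with EMO. No read was counted in any EMO library, so the decrease was set against a floor of 3 counts per library, which made it at least 678-fold. Pla2g4a (ENSRNOG00000002657, chromosome 13, 66988937 to 67206693, minus strand) encodes cytosolic phospholipase A2α, the calcium-dependent enzyme that favours arachidonic acid. It had 1196, 1146 and 1167 counts with TNF-α and 479, 456 and 429 with EMO. The EMO libraries sat well below the TNF-α libraries, but none was near 0. The mean of normalized counts (counts scaled by library size) was 1143 ± 28.2 (SD, n = 3) with TNF-α and 466 ± 28.5 (SD, n = 3) with EMO. Its log2 fold change was -1.29 (SE 0.08, adjusted p = 4.6e-08 by edgeR), or 2.45-fold.

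Within a library, Pla2g4a made up 12.2%, 11.3% and 12.9% of the counts per kb of both phospholipases with TNF-α, and 100% in every EMO library. The mean share rose from 12.1% ± 0.817 to 100%, a difference of 87.9 percentage points. The 100% follows from the 0 counts of Pla2g2a with EMO, and at the floor of 3 counts per library the share would be lower. The exact permutation test (two-sided) gave p = 0.1, which is the smallest p that 3 libraries against 3 can give, so this test cannot pass 0.05 for any of the 4 shares computed. The shares of Pla2g4a, Ptges and Ptger4 also restate the low EMO counts of Pla2g2a, Ptges and Ptger4, and add no separate support.

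The 2 cyclooxygenases also fell, Ptgs2 more than Ptgs1 in log2 fold change. Ptgs1 (ENSRNOG00000007415, chromosome 3, 15560712 to 15582344, plus strand) encodes COX-1, the enzyme most cells make constitutively. It had 420, 397 and 384 counts with TNF-α and 22, 37 and 15 with EMO. Its normalized counts averaged 391 ± 19.2 with TNF-α and 25.3 ± 11.5 with EMO (SD, n = 3), and the log2 fold change was -3.95 (SE 0.24, adjusted p = 7.5e-08 by edgeR), or 15.4-fold. The EMO libraries differed among themselves, with replicate 2 the highest and replicate 3 the lowest, and none came near the TNF-α libraries. Ptgs2 (ENSRNOG00000002525, chromosome 13, 67351087 to 67359335, plus strand) encodes COX-2, the inducible enzyme of inflammation. It had 1248, 1390 and 1347 counts with TNF-α and 36, 30 and 34 with EMO. The EMO libraries lay close together, and the log2 fold change was -5.24 (SE 0.11, 95% interval -5.49 to -5.00, adjusted p = 1.6e-11 by edgeR), or 37.9-fold. The interval for Ptgs1, -4.49 to -3.40, lies above that for Ptgs2.

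The share of Ptgs2 in the counts per kb of Ptgs1 plus Ptgs2 was 65.6%, 69.2% and 69.2% with TNF-α, and 51.2%, 34.2% and 59.2% with EMO. Its mean went from 68.0% ± 2.09 to 48.2% ± 12.8, a difference of -19.8 percentage points (exact permutation p = 0.1, two-sided). The groups did not overlap, but the EMO libraries were spread widely, and only 174 counts of the pair were left in them in all. Without TNF-α+EMO replicate 2, which holds the most Ptgs1 counts of the EMO libraries, the difference was -12.8 points.

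The 3 PGE synthases split, with Ptges lower and Ptges2 and Ptges3 higher in the EMO libraries. Ptges (ENSRNOG00000006320, chromosome 3, 9727408 to 9738752, minus strand) encodes microsomal PGE synthase-1, which works with COX-2 in inflamed tissue. It had 32, 25 and 15 counts with TNF-α and 0, 0 and 0 with EMO. Its level was low even with TNF-α, so the bound was at least 7.63-fold lower. Ptges2 (ENSRNOG00000014050, chromosome 3, 11424099 to 11431402, plus strand) encodes microsomal PGE synthase-2, which is made without an inflammatory stimulus. It had 456, 458 and 462 counts with TNF-α and 866, 975 and 1004 with EMO. Every EMO library was higher than every TNF-α library, and the log2 fold change was 1.12 (SE 0.08, adjusted p = 2.3e-07 by edgeR). Ptges3 (ENSRNOG00000002642, chromosome 7, 2479311 to 2497013, plus strand) encodes p23, a cochaperone of Hsp90 that is also described as cytosolic PGE synthase. It had 4030, 3797 and 4033 counts with TNF-α and 8004, 8342 and 8244 with EMO, a log2 fold change of 1.12 (SE 0.06, adjusted p = 9.4e-09 by edgeR). Ptges2 and Ptges3 thus rose by the same factor to 3 digits, 2.17-fold, and both lie close to the fold threshold. When libraries were scaled by total counts only, which moved the median of all genes by -0.11, their log2 fold changes were 1.00 and 1.01.

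As a share of the counts per kb of the 3 PGE synthases, Ptges was 0.957%, 0.791% and 0.450% with TNF-α, and 0 in every EMO library, where a count of 0 allows at most 0.0458%. The difference of means was -0.733 percentage points (exact permutation p = 0.1, two-sided). Ptges3 made up most of the reads of this step in both groups. A pair of genes named for their likeness to Ptges3 could share reads with it and were looked up after its values were seen. Ptges3l had 354, 303 and 310 counts with TNF-α and 84, 82 and 117 with EMO, and Ptges3l1 had 9, 17 and 2 against 30, 20 and 24. Both were far below Ptges3, Ptges3l fell (adjusted p = 2.1e-06) and Ptges3l1 rose (adjusted p = 0.026, both by edgeR).

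The mRNAs of the set's receptors, Ptger2 and Ptger4, were close to the limit of detection in these cells. Ptger4 (ENSRNOG00000013240, chromosome 2, 54952821 to 54963448, minus strand) encodes EP4 and Ptger2 (ENSRNOG00000050968, chromosome 15, 19338175 to 19350210, plus strand) encodes EP2, both of which raise cAMP. Ptger4 had 10, 15 and 13 counts with TNF-α and 1, 0 and 0 with EMO. The ratio of its summed counts, scaled by library size, TNF-α over TNF-α+EMO, was 36.2 with an exact 95% counting interval of 6.12 to 1468. The single EMO read sat in replicate 1, and the fitted log2 fold change of -4.74 became -6.65 without that library. Ptger2 had 1, 0 and 0 counts with TNF-α and 1, 1 and 4 with EMO. It was too low to test, and a difference was not detectable at this depth (adjusted p = 0.20 by edgeR when no filter on low counts was used). Ptger4 made up 93.0%, 100% and 100% of the counts per kb of the receptor pair with TNF-α and 57.1%, 0% and 0% with EMO, but these shares rest on 39 and 7 counts (exact permutation p = 0.1, two-sided).

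**Figure D1:**
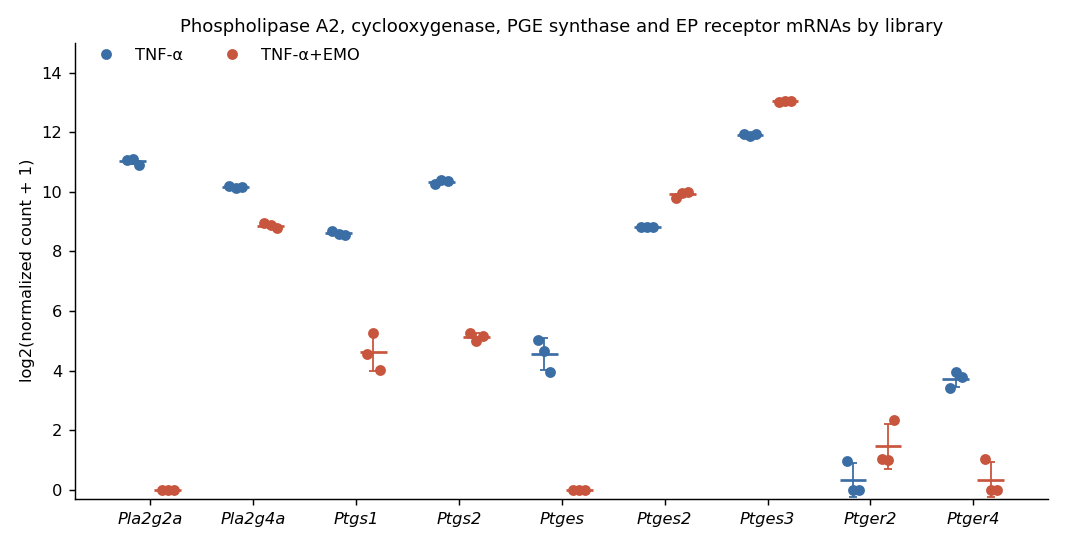
Normalized counts of the 9 genes in each of the 6 libraries, as log2(normalized count + 1) on the vertical axis, with 1 point per library, a bar for the mean and whiskers for the SD (n = 3 per group, blue for TNF-α and red for TNF-α+EMO). The EMO points lie below the TNF-α points for Pla2g2a, Pla2g4a, Ptgs1, Ptgs2, Ptges and Ptger4 and above them for Ptges2 and Ptges3, and Pla2g2a and Ptges are at 0 in all 3 EMO libraries.

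**Figure D2:**
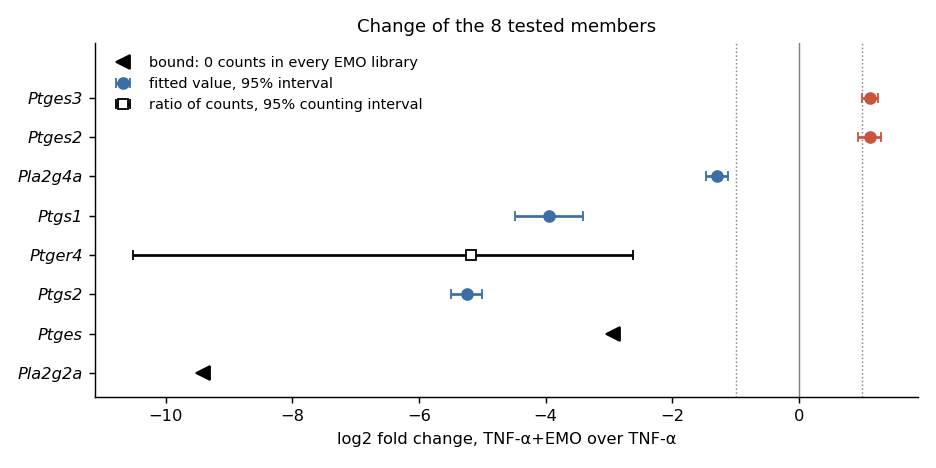
Log2 fold change of TNF-α+EMO over TNF-α for the 8 tested genes. Circles are fitted values with 95% intervals, triangles are the bounds for Pla2g2a and Ptges, which have 0 counts in every EMO library, the square is the ratio of counts of Ptger4 with its counting interval, and dotted lines mark a log2 fold change of -1 and 1. Ptges2 and Ptges3 sit near 1, Pla2g4a at -1.29, Ptgs1 at -3.95 and Ptgs2 at -5.24.

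**Figure D3:**
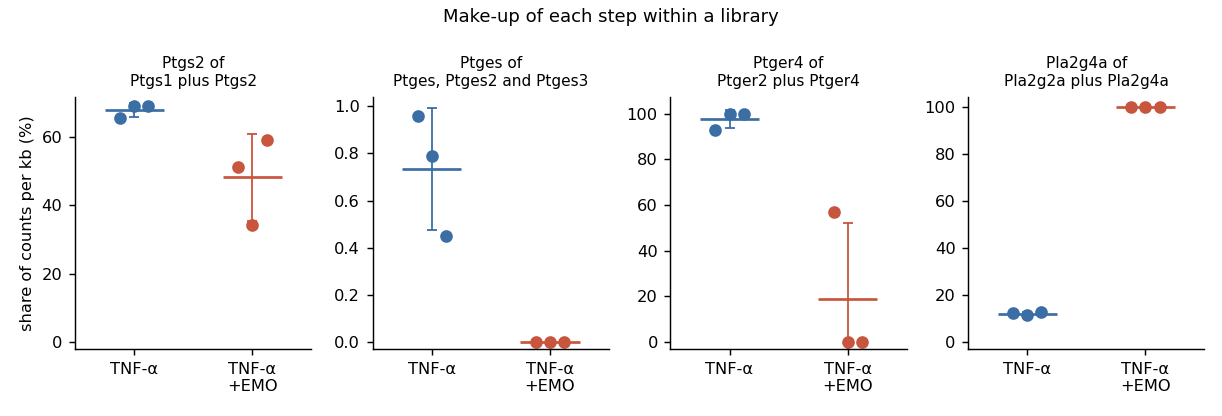
Share (%) of the counts per kb of a step that came from 1 gene, per library, with the mean as a bar and the SD as whiskers (n = 3 per group). Each panel has its own scale from 0 and a whisker below 0 is not drawn. The share of Pla2g4a went from 12.1% to 100% and that of Ptges from 0.733% to 0, and the share of Ptgs2 was spread over 34.2% to 59.2% in the EMO libraries.

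Levels of different genes were compared as CPM (counts scaled to library size) per kb of gene length. In the TNF-α group Pla2g2a (143 ± 9.88) and Ptges3 (135 ± 4.84) had the highest levels, and their ranges over libraries overlapped. They were followed by Pla2g4a (19.7 ± 0.486), Ptgs2 (17.3 ± 0.891), Ptges2 (12.1 ± 0.0492), Ptgs1 (8.12 ± 0.400), Ptges (1.09 ± 0.391), Ptger4 (0.489 ± 0.0957) and Ptger2 (0.00971 ± 0.0168), with no overlap between neighbours in this part of the order. In the TNF-α+EMO group the level of Ptges3 was 295 ± 4.92, that of Ptges2 was 26.1 ± 1.85 and that of Pla2g4a was 8.03 ± 0.492. Ptgs1 (0.525 ± 0.239) and Ptgs2 (0.455 ± 0.0432) came next and overlapped. Ptger2, Ptger4, Ptges and Pla2g2a were at 0.0607 or lower and could not be ordered. With TNF-α, Ptgs2 and Pla2g4a thus stood well above Ptges, and with EMO the only genes of the set above 1 CPM per kb were Ptges3, Ptges2 and Pla2g4a.

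Some of these genes are neighbours on a chromosome. Pla2g4a and Ptgs2 lie 144 kb apart on chromosome 13 with 1 other listed gene between them, which has no name in the table. Their log2 fold changes were -1.29 and -5.24, so the neighbours did not move by the same amount. Ptges, Ptges2 and Ptgs1 lie on chromosome 3 with gaps of 1.69 Mb and 4.13 Mb, and these moved in both directions. None of the 9 genes overlaps another gene with 10 or more counts in a library.

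Profiles most like those of Ptgs2 and Ptges were sought among 9412 tested and named genes with a mean of at least 100 counts, by the Euclidean distance between log2 CPM values centred over the 6 libraries. The nearest to Ptgs2 were Abca1, a cholesterol exporter (distance 0.174), Gdf11, a growth factor of the TGF-β family (0.191), and Cav1, the coat protein of caveolae (0.249). Abca1 went from 613 ± 0.665 to 16.4 ± 2.12 normalized counts and Cav1 from 9269 ± 85.7 to 237 ± 19.9. The nearest to Ptges were Aldh5a1 (0.552), Rspo1 (0.568) and Cntnap1 (0.602), at larger distances. Ptges had 0 counts in every EMO library, so its level there was set by the small count added before taking logs. Its neighbours, with log2 fold changes of -3.62, -3.76 and -3.61, depend on that setting. The 3 TNF-α libraries of Ptges themselves differed, with 32, 25 and 15 counts. Such likeness is over 6 libraries in 2 groups and says nothing of shared control.

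The wider pathway was described with 8 lists of other genes by role, of which 75 genes were tested. Together they held 31 lower DEGs (41.3%) and 11 higher DEGs (14.7%), with a median log2 fold change of -0.65, beside 27.8% lower, 19.5% higher and a median of -0.01 over all genes tested. The low-count filter was passed through the TNF-α libraries alone by 8 of the 75 (Pla2g5, Pla2r1, Plaat3, Prxl2b, Ptgir, Adcy4, Ltc4s and the low-count Gnas entry) and through the EMO libraries alone by Tbxas1. These 9 had to differ in the direction given, and their tests add nothing to that. The 8 are among the 31 lower DEGs and Tbxas1 is among the 11 higher.

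Among the other phospholipases A2 and their partners, 22 genes were in the table and 10 were tested. Of these, 3 were lower (30.0%) and 3 higher (30.0%), beside 27.8% and 19.5% over all genes tested. The list's median log2 fold change was 0.58. Pla2g5, a secreted phospholipase of the same gene cluster as Pla2g2a, had 325, 294 and 283 counts with TNF-α and 0, 0 and 1 with EMO. The ratio of its summed counts, scaled by library size, was 860, with a counting interval of 154 to 3.4e+04. Pla2r1, a receptor that binds secreted phospholipases A2, fell from 164 ± 10.2 to 6.83 ± 2.13 normalized counts (log2 fold change -4.56, SE 0.26). Plaat3, a phospholipase of lipid droplets and organelle membranes, had 11, 15 and 23 counts with TNF-α and 0, 1 and 1 with EMO, a ratio of 23.4 (counting interval 6.13 to 198). Pla2g4b, a cytosolic phospholipase A2, had 195, 165 and 151 counts with TNF-α and 481, 503 and 554 with EMO (log2 fold change 1.66, SE 0.12). Pla2g6, a calcium-independent phospholipase A2, had a log2 fold change of 1.24 (SE 0.07), and Pnpla8, a calcium-independent phospholipase of mitochondria and peroxisomes, of 1.17 (SE 0.11). Among the genes that were not DEGs, the secreted Pla2g2e (0.77, adjusted p = 0.0012) and Pla2g12a (0.57, adjusted p = 4.5e-04, both by edgeR) had more counts with EMO.

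Genes that make, activate and store arachidonic acid were mostly lower. Of 10 tested, 7 (70.0%) fell past the threshold and none rose past it, beside 27.8% and 19.5% over all genes tested. The list's median log2 fold change was -1.41. Fads2, the delta-6 desaturase that starts the synthesis of arachidonic acid from linoleic acid, fell from 1595 ± 56.1 to 177 ± 19.8 normalized counts (log2 fold change -3.17, SE 0.09, adjusted p = 1.7e-10 by edgeR). Fads1, the delta-5 desaturase that makes arachidonic acid itself, had a log2 fold change of -1.87 (SE 0.06), and Elovl5, the elongase between them, of -1.35 (SE 0.07). Acsl3, an acyl-CoA synthetase, had -2.82 (SE 0.07). Acsl4, the acyl-CoA synthetase known for its preference for arachidonic acid, was not a DEG, with a log2 fold change of 0.35 (adjusted p = 0.0030). Lpcat3, which puts arachidonic acid back into phospholipids, had -1.47 (SE 0.06), and it overlaps Emg1 on the other strand, which had up to 764 counts. Dagla, a diacylglycerol lipase of endocannabinoid synthesis, had -1.21 (SE 0.17).

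Of the other prostanoid synthases, 5 were in the table and 3 were tested, all at low counts. Tbxas1, thromboxane A synthase, had 4, 2 and 1 counts with TNF-α and 15, 16 and 18 with EMO (log2 fold change 2.81, SE 0.51). It passed the low-count filter through the EMO libraries alone, so it had to be higher. Prxl2b, which makes prostaglandin F2α, had 48, 46 and 44 counts with TNF-α and 2, 3 and 7 with EMO (-3.42, SE 0.41). Cbr1, a carbonyl reductase that converts prostaglandin E2 to F2α among other reactions, had 10, 7 and 15 counts with TNF-α and 35, 30 and 64 with EMO (2.07, SE 0.41, adjusted p = 7.0e-04 by edgeR). It overlaps LOC102556347 on the same strand, which had up to 476 counts.

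For the transport and breakdown of prostaglandins, 5 genes were tested, 2 fell past the threshold (40.0%) and none rose past it. Over all genes tested, 27.8% fell and 19.5% rose past it. Ptgr1, a prostaglandin reductase, had 246, 256 and 304 counts with TNF-α and 24, 21 and 24 with EMO (log2 fold change -3.47, SE 0.18, adjusted p = 1.1e-08 by edgeR). Zadh2, another reductase of prostaglandin metabolites, had -1.38 (SE 0.12, adjusted p = 7.3e-07). Slco2a1, the prostaglandin importer, had -0.71 (adjusted p = 0.0025), Abcc4, an exporter, had -0.33 (adjusted p = 0.0020) and Ptgr2 had 0.34 (adjusted p = 0.012), none of which passed the fold threshold. Hpgd, the dehydrogenase that begins prostaglandin inactivation, was at 0 in every library.

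Of the other prostanoid receptors and their partners, 5 were tested, with 3 lower (60.0%) and none higher, beside 27.8% and 19.5% over all genes tested. The list's median log2 fold change was -2.55. Ptgfr, the receptor of prostaglandin F2α, had 482, 514 and 590 counts with TNF-α and 14, 19 and 20 with EMO (-4.82, SE 0.16, adjusted p = 4.5e-10 by edgeR). Ptgir, the prostacyclin receptor, had 167, 127 and 122 counts with TNF-α and 6, 6 and 4 with EMO (-4.60, SE 0.29). Ptgfrn, a membrane protein that binds the Ptgfr protein, had -2.55 (SE 0.08). Ptger1, which encodes EP1, was the prostaglandin E2 receptor with the most counts, at 592 normalized counts with TNF-α and 475 with EMO, and was not a DEG (-0.32, SE 0.10, adjusted p = 0.013). For Tbxa2r, the thromboxane receptor, no difference was detected (0.62, 95% interval -0.10 to 1.34, adjusted p = 0.099). Ptger3 was at 0 in every library.

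The cAMP pathway that EP2 and EP4 act through gave 9 lower (37.5%) and 2 higher (8.33%) DEGs among 24 tested entries. Over all genes tested these shares were 27.8% and 19.5%. The list's median log2 fold change was -0.83. Gnas, the stimulatory G protein subunit, has 2 entries that overlap on the same strand. The main entry had up to 6278 counts and was not a DEG (-0.31), and the other (ENSRNOG00000025889), with 10, 15 and 11 counts with TNF-α and 0, 6 and 1 with EMO, is among the 9 lower DEGs and its reads may be uncertain. Prkar2b, a regulatory subunit of protein kinase A, had 1626, 1502 and 1485 counts with TNF-α and 10, 23 and 29 with EMO (-6.14, SE 0.20). Pde4b, a phosphodiesterase that breaks cAMP down, had 837, 820 and 849 counts with TNF-α and 12, 20 and 21 with EMO (-5.49, SE 0.15). Adcy4, an adenylyl cyclase, had 23, 13 and 13 counts with TNF-α and 0, 0 and 0 with EMO, at least 5.20-fold lower. The lower DEGs include enzymes that make, sense and break down cAMP. Prkar2a, another regulatory subunit, had -1.03 (SE 0.10). Nr4a3, a nuclear receptor gene induced by cAMP, had 1.56 (SE 0.33), and Pde4a had 1.15 (SE 0.28), which became 0.99 and no longer a DEG without TNF-α+EMO replicate 3.

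The lipoxygenase and leukotriene branch, which draws on the same arachidonic acid, had 6 of its 15 genes tested, with 1 lower, 3 higher and a median log2 fold change of 0.38. Lta4h, leukotriene A4 hydrolase, had 1476, 1322 and 1431 counts with TNF-α and 997, 941 and 907 with EMO and was not a DEG (-0.50, adjusted p = 8.3e-05 by edgeR). Ltc4s, leukotriene C4 synthase, had 33, 33 and 32 counts with TNF-α and 0, 0 and 0 with EMO, at least 10.4-fold lower. This gene, the only lower DEG of the branch, passed the low-count filter through the TNF-α libraries alone, so it had to be lower. Ephx2, the soluble epoxide hydrolase, had 63, 63 and 46 counts with TNF-α and 252, 314 and 290 with EMO (2.38, SE 0.17, adjusted p = 2.0e-07 by edgeR). Aloxe3 (2.34, SE 0.47) and Alox12 (1.26, SE 0.39), both lipoxygenases, rose from at most 12 counts in a TNF-α library. Alox5, the 5-lipoxygenase, was at 0 in every library.

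Proteins that bind the AU-rich 3′ end of the Ptgs2 mRNA and set its lifetime gave 5 lower (41.7%) and 1 higher (8.33%) DEG among 12 tested genes. Over all genes tested the shares were 27.8% and 19.5%. The list's median log2 fold change was -0.78. Zfp36l1 had 4777, 4276 and 4347 counts with TNF-α and 233, 226 and 232 with EMO (-4.21, SE 0.08, adjusted p = 6.0e-12 by edgeR), and Zfp36l2 had -2.34 (SE 0.17), both of which promote mRNA decay. Tia1 (-1.26, SE 0.08), a translational silencer, and Hnrnpd (-1.07, SE 0.12) fell, and Celf2 rose (1.45, SE 0.24). For Elavl1, which encodes the stabilising protein HuR, the log2 fold change was 0.05 with a 95% interval of -0.10 to 0.21.

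**Figure D4:**
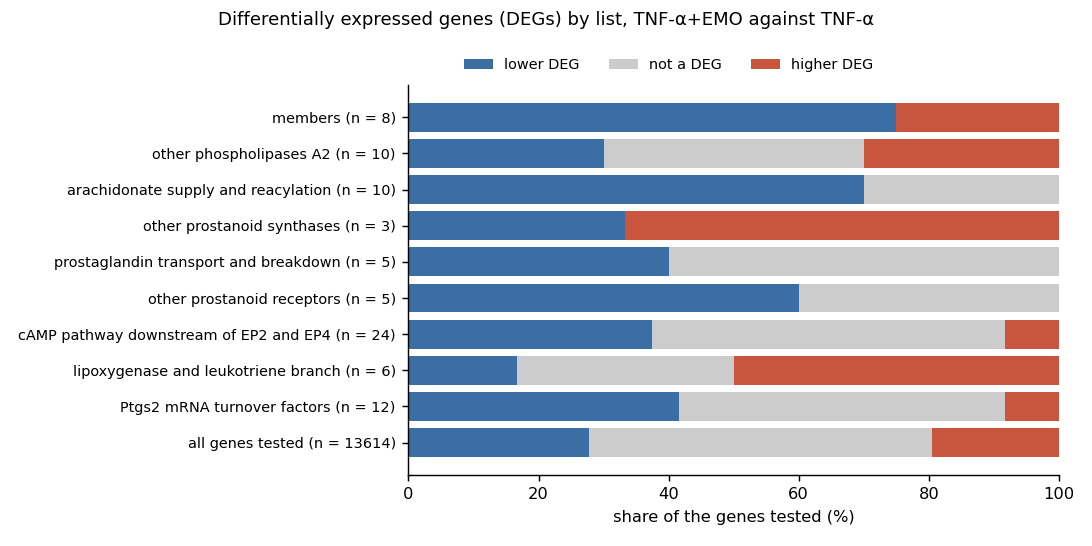
Share (%) of the tested genes of each list that were lower DEGs (blue), not DEGs (grey) or higher DEGs (red) in TNF-α+EMO against TNF-α, with the number tested beside each name. All 8 tested genes of the set were DEGs, the arachidonate supply list had 70.0% lower and no higher DEG, and the bottom bar gives all 13614 genes tested, with 27.8% lower and 19.5% higher.

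**Figure D5:**
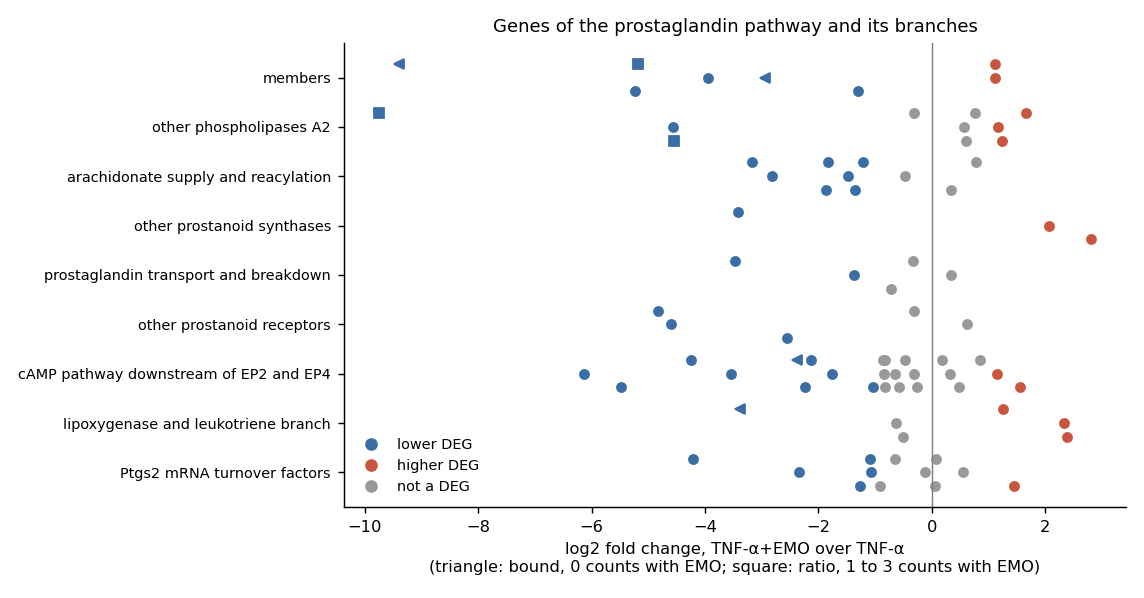
Log2 fold change of TNF-α+EMO over TNF-α for every tested gene of the set and the 8 lists, 1 mark per gene, with circles for fitted values, triangles for bounds where all EMO libraries were at 0, and squares for ratios where 1 to 3 counts were left. Blue, red and grey mark lower DEGs, higher DEGs and genes that were not DEGs, and the lists of prostanoid receptors, transport and breakdown genes and arachidonate supply genes show no red mark.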

How the data were processed

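The 6 poly(A)-selected paired-end libraries of rat RA-FLS, 3 per group by the sample labels, were sequenced by the authors' provider. Submitters' processing notes name FastQC, Trimmomatic, HISAT2 and build Rnor_6.0, and the counting program, annotation version and strand setting are not given in the sources used here. The authors deposited raw counts per gene, used here, with gene lengths and positions. The authors also deposited FPKM values, group mean signal (scaled counts), a log2 fold change and a p-value per gene from their own comparison, none of which was used.

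The low-count filter kept genes that reached 10 counts in 3 or more libraries (13614 of 34156). These were normalized by TMM and compared by edgeR 4.0.16 in R 4.3.3 (robust quasi-likelihood F test, no covariates), with Benjamini-Hochberg adjustment over all tested genes and without strand information. DESeq2 1.42.0 was an alternative. The SE is the size of the log2 fold change divided by the square root of F. Normalized counts are counts scaled by effective library size. A group with 3 counts or fewer in every library was at the floor. Bounds, floors and counting intervals (95%) cover counting error only.

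Members, lists and tests were chosen with earlier results of these data known. All members are named. Of the lists, every tested synthase, transport and breakdown gene and receptor is named, and elsewhere the 3 lowest and 3 highest DEGs. Other list genes, such as Acsl4, Pla2g2e, Pla2g12a, Gnas, Lta4h, Alox5 and Elavl1, were named after their values were seen. The values of 1 gene that this rule names are not reported here. Ptgis was not analysed here. Alternatives were other scalings, filters, thresholds, DESeq2, a replicate block, shares without gene length and each library left out.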

Additional observations from a re-analysis of the deposited data

How the results depend on the processing

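All 8 tested prostaglandin genes kept their direction and their side of the threshold on the adjusted p under every alternative that tested them. Pla2g2a, Ptges and Ptger4 passed the low-count filter through the TNF-α libraries alone, so their direction was fixed and adds no support. The filter of 50 counts left Ptges and Ptger4 untested, so that 4 genes of the set were lower. At an absolute log2 fold change over 2, 0 genes of the set, 4 other pathway genes and 809 genes in all were higher, and 20 and 2255 were lower. With no fold threshold, 5366 genes in all were higher, and of the other pathway genes 47 were lower and 19 higher. With the filter of 50 counts, 5 other pathway genes were higher. With each library left out, the log2 fold change of Ptgs1 ranged from -4.36 to -3.69, of Ptgs2 from -5.31 to -5.18, of Pla2g4a from -1.34 to -1.26, of Ptges2 from 1.07 to 1.17 and of Ptges3 from 1.09 to 1.14. Without gene lengths, the difference in the share of Pla2g4a was 64.5 points.

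Replicate numbers are shared by the groups. The deviations of same-numbered libraries correlated at -0.0068 to 0.068 across genes and those of differently numbered ones at -0.070 to 0.053. No shared deviation by number was thus seen, but 3 libraries per group cannot show whether cultures were run in pairs. With the replicate block, 3775 genes were lower and 2646 higher, the set again had 6 lower and 2 higher and the other pathway genes 31 and 11, and paired shares cannot give an exact p below 0.25. Depth limits Ptger2, Ptger4 and Ptges, which had at most 32 counts in a library.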
